A study of Brassica oleracea var. italica with 48 samples.

Results

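Roots of broccoli that had spent 6 days in a medium without potassium were set against roots of plants kept in potassium for the same 6 days. Every feature whose ID begins with Bo and that reached 1 TPM or more in at least 4 of the 8 root libraries of day 6 was included, which gave 27427 of the 59225 Bo features and of the 60586 features in the table. The unit TPM divides the reads of a feature by its length and scales the library to a total of 1000000, so that a level is a share of all transcripts in that library. Of these features 24561 reached 1 TPM in all 8 libraries and 742 in exactly 4. Among the 742, 220 reached it in the 4 starved libraries alone and 112 in the 4 control libraries alone, so these had to differ in order to enter. At the limit, features with exactly 4 such libraries had a median level of 1.01 TPM, and the 593 Bo features with exactly 3, which were left out, one of 0.801 TPM.

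The starved group held 4 root libraries of wild-type Brassica oleracea var. italica, lettered a to d, from plants moved to potassium-free medium for 6 days. The control group held 4 root libraries of wild-type plants that stayed in the medium with 2 mM K2SO4, also on day 6. Before the split all plants had grown for 6 days on MS plates and for 7 days in that hydroponic medium, with 16 h of light. The study sampled both treatments on days 1, 3 and 6 in roots and leaves, which made 48 libraries in 12 groups of 4. Nothing in the labels tells whether the 4 libraries of a group came from separate plants or cultures, so a p-value here measures the spread between libraries, and that spread may be technical.

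Potassium is the main inorganic cation of plant cells, where it sets turgor, balances charge and activates enzymes. Roots take it up through channels such as AKT1 and, when little is left outside, through high-affinity transporters such as HAK5, both best known from Arabidopsis thaliana. In that species low potassium also brings reactive oxygen, ethylene and jasmonate signalling into play in the root, and the genes of uptake are among those that respond. The title of the series names HAK5 and the synthesis of salicylic acid. The deposited table gives feature IDs without gene names, and 0 of its 60586 IDs matched the 53125 genes of the annotation used here, so these genes were not analysed here and features are described by ID with no role.

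The tissue label was checked with features chosen in other libraries. The 100 features that stood highest in roots over leaves in the controls of days 1 and 3 summed to 71661 to 85019.7 TPM in the starved root libraries of day 6 and to 91357 to 104419 TPM in the control root libraries, against 49.2 to 112 TPM in control leaves of that day. The 100 features that stood highest in leaves summed to 89.7 to 275 TPM in starved roots and to 134 to 414 TPM in control roots, against 298838 to 329714 TPM in control leaves. Starved a, b and d, at 252 to 275 TPM, lay above control a, b and c, at 134 to 173 TPM. Starved c (89.7 TPM) and control d (414 TPM) went the other way. Both root groups thus carried little of the leaf signal, and no difference between them was detected (exact permutation test, two-sided, p = 1; the smallest p that 4 against 4 allows is 0.0286). The sum of root-abundant features was 0.806 times as high in starved as in control roots, with no overlap of the groups (exact permutation test, two-sided, p = 0.0286). Such a sum weighs the most abundant features most. It differed by -18932 TPM, and Bo2g055670, the most abundant feature of these roots and not called, differed by -7545 TPM. In bulk RNA, fewer cells of a type and less RNA per cell cannot be told apart.

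The libraries of this day fell into 2 kinds that crossed the treatments. In starved a, b and c and control a and c, features of short coding length stood above the mean of all root libraries, with Spearman correlations of deviation and coding length from -0.37 to -0.14. In starved d and control b and d the correlation ran the other way, from 0.15 to 0.266. Among controls, the pairs of one kind were the closest, with a chi-square of reads per degree of freedom of 8.12 for a and c and 8.58 for b and d, against 31.6 for c and d and 34.7 for a and d. Among starved libraries this was less plain, since b and d (17.3) were closer than a and c (19.6). Results are also given within each kind. Depth differed little, at 18611145 to 19735733 reads in starved and 19559472 to 19715316 reads in control libraries.

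**Figure D1:**
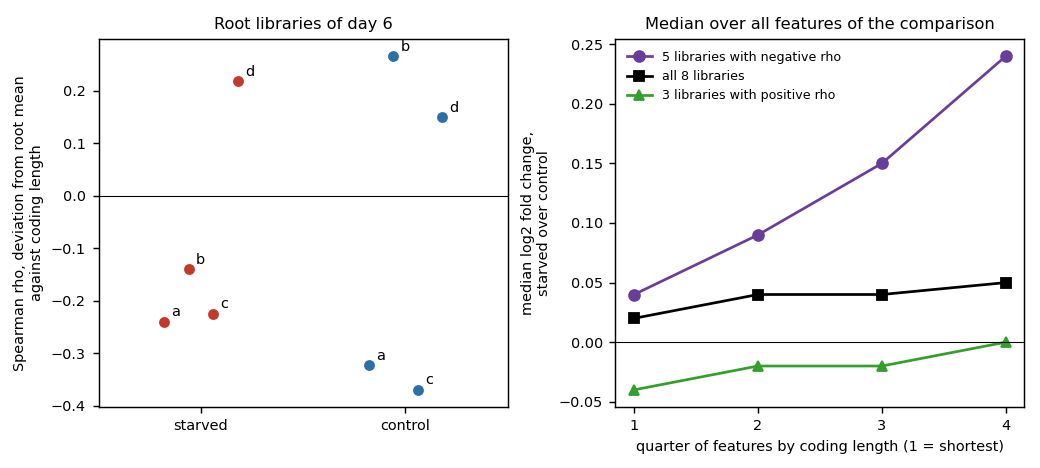
Left, Spearman correlation between coding length and each library's deviation from the mean of all 24 root libraries, for the starved and control libraries a to d of day 6. Right, median log2 fold change of starved over control roots in 4 classes of the 27427 features by coding length, from the 5 libraries with a negative correlation, from all 8 and from the 3 with a positive one. The median of the longest class was 0.24 in the 5 libraries and 0.05 over all 8.

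After 6 days without potassium 2509 features stood higher and 1863 lower in the starved roots (limma, Benjamini-Hochberg adjusted p under 0.05), together 4372 or 15.9% of the 27427, with 9.15% higher and 6.79% lower. Of all 29422 features in the root fit 15.6% were called. An unadjusted p under 0.05 was found for 7025. Most changes were moderate. The middle 50% of rises had log2 fold changes of 0.64 to 1.30, with a median of 0.89, and the middle 50% of falls -1.15 to -0.57, with a median of -0.81, while the median of all 27427 was 0.04. Changes of 2 or more on the log2 scale were reached by 204 rises and 90 falls, of 3 or more by 43 rises and 19 falls, and of 4 or more by 7 rises and 1 fall. Fold changes were taken on log2(TPM + 1), so those of features with few TPM are understated.

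For 2153 of the rises all 4 starved libraries lay above all 4 controls, and for 1656 of the falls all 4 lay below. Among all 27427 features, called or not, 10.5% had the starved libraries all above and 8.64% all below the controls. Calls were found in every class of level. Of features with a mean of 3 to 10 TPM over the 8 libraries, 8.92% were called higher and 5.81% lower, and of those from 100 to 300 TPM, 11.3% and 9.43%. Above 300 TPM the balance turned, with 41 rises (8.74%) and 62 falls (13.2%) among 469 features. Limma array weights, which give libraries that deviate more from the fit less weight, gave 7656 calls. The lowest weights of day 6 were those of control d (0.31), control b (0.318) and starved d (0.493). These are the libraries with a positive length correlation. With the length correlation of each library as a covariate 7207 features were called. With a minimum log2 fold change of 1 the calls numbered 1679.

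**Figure D2:**
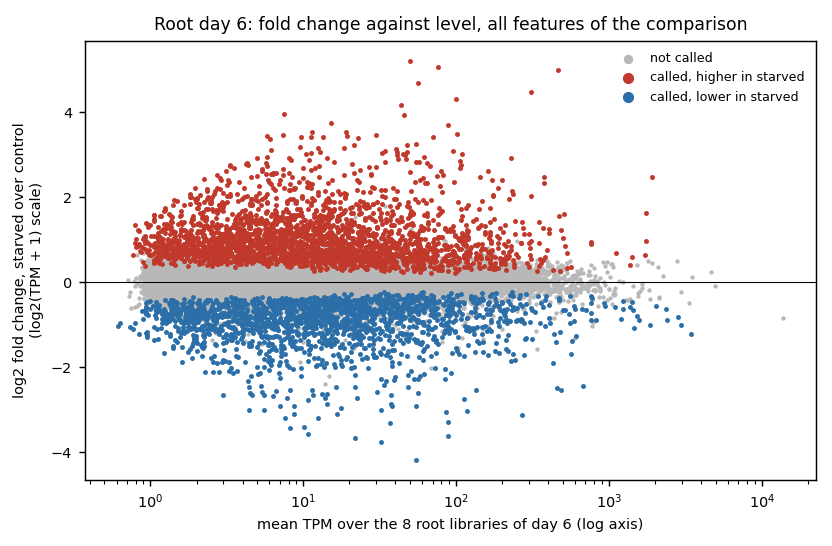
Log2 fold change of starved over control roots on day 6, on the log2(TPM + 1) scale, against the mean TPM over the 8 libraries on a log axis, with 1 point per feature. The 2509 rises (red) and 1863 falls (blue) spread over most of the range of levels, and the most abundant feature lies below 0 without being called.

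The direction of the calls was nearly always shared by both kinds of library. The 5 libraries with a negative length correlation, taken alone with the spread of all root libraries, called 1888 rises and 1099 falls. In the other 3 libraries, whose levels did not enter those fold changes, 1865 (98.8%) of the 1888 were again above 0, with a median log2 fold change of 0.94, and 1091 (99.3%) of the 1099 below 0, with a median of -0.86. Of all 27427 features 47.3% were above 0 in those 3 libraries, and their median was -0.02. The 3 libraries alone called 626 rises and 333 falls, of which 591 and 312 were also called in the 5. With 1 starved library among the 3, its spread is assumed to be that of the other groups.

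The largest rise on the log2(TPM + 1) scale was that of Bo8g076240. With a pseudocount of 0.1 the log2 fold change of Bo9g043560, described further on, was larger, at 7.2 against 5.85, and with voom those of Bo5g006870 (7.81) and Bo9g043560 (7.48) were, against 5.93. The controls of both are at 0, so their fitted values depend on the added constant. Bo8g076240 had 107, 136, 48.3 and 102 TPM in starved libraries a to d, against 1.42, 1.66, 1.27 and 1.68 TPM in control libraries a to d. Library c was the lowest of the starved ones and still stood far above every control. The log2 fold change was 5.22 (limma, SE 0.30, adjusted p = 1.84e-10). In leaves of day 6 this feature was listed at 0 in all 8 libraries.

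Next came Bo1g021930, with 92.2, 164, 99.6 and 238 TPM in starved libraries, against 2.75, 3.69, 3.37 and 2.90 TPM in controls. Starved libraries differed among themselves by more than the controls did, with SDs of 68.0 and 0.432 TPM, and the groups did not overlap (limma, log2 fold change 5.06, SE 0.49, adjusted p = 1.39e-07). Its level in leaves of day 6 did not pass 0.0466 TPM in any library.

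Among the falls Bo9g005670 led. In starved libraries a to d it had 2.52, 5.73, 5.14 and 6.77 TPM, against 88.6, 107, 98.5 and 125 TPM in control libraries. All 4 starved libraries lay far below every control, and the log2 fold change was -4.18 (limma, SE 0.26, adjusted p = 4.03e-10). Bo8g037940 had 2.36, 5.21, 2.1 and 5.33 TPM in starved roots, against 56.9, 61.2, 67.8 and 55.2 TPM in control roots. Its log2 fold change was -3.76 (limma, SE 0.26, adjusted p = 2.01e-09), with no overlap. Both falls were called within each kind of library, at -4.17 in the 5 libraries and -3.90 in the 3 for Bo9g005670, and at -3.97 and -3.22 for Bo8g037940.

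**Figure D3:**
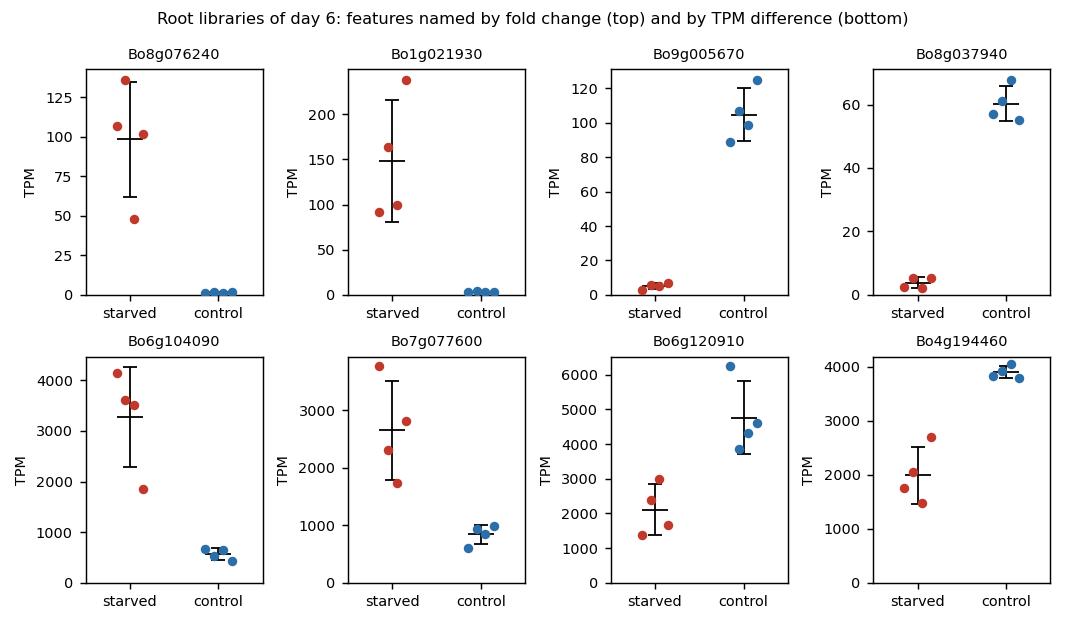
TPM in the 4 starved (left, red) and 4 control (right, blue) root libraries of day 6, with the mean and SD as bars, on axes that start at 0. The upper row holds the 2 rises and 2 falls of largest fold change and the lower row the 2 rises and 2 falls of largest difference in TPM, and in all 8 the groups do not overlap.

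The shift was also measured as a sum of TPM. The 2509 rises held 124109 ± 9659 TPM in starved and 60992 ± 967 TPM in control roots, and the 1863 falls held 78934 ± 4697 TPM in starved and 143716 ± 3784 TPM in control roots (SD, n = 4 each). The same libraries picked these features, which fixes the direction of the sums. Among the rises 137 features made up 50% of the summed difference, and among the falls 64 did. The 10 features of largest difference made up 16.0% of it in the rises and 20.8% in the falls. The 10 most abundant features of each library summed to 38329.7 to 44956 TPM in starved and to 49153 to 58961 TPM in control roots (exact permutation test, two-sided, p = 0.0286). Bo2g055670, the most abundant by mean level, differed by -7545 TPM.

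Bo6g104090 gained most in TPM. It had 4135, 3610.2, 3502 and 1855 TPM in starved libraries a to d, against 671, 524, 649.9 and 421 TPM in control libraries. Starved d was the lowest starved library, as control d was the lowest control, and the groups stayed apart (limma, log2 fold change 2.49, SE 0.27, adjusted p = 7.32e-07). By mean level it ranked 5 among the 27427 features in starved roots and 181 in control roots. It was also abundant in leaves of day 6, with 4088 ± 1871 TPM in starved and 746 ± 341 TPM in control leaves (SD, n = 4 each), a difference not tested here.

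Bo7g077600 had 3759.8, 2299, 1729.6 and 2814 TPM in starved roots, against 611, 929.9, 843 and 985 TPM in control roots. Every starved library lay above every control (limma, log2 fold change 1.62, SE 0.20, adjusted p = 3.22e-06). In leaves of day 6 it stood at only 0.657 ± 0.976 TPM in starved and 0.573 ± 1.01 TPM in control plants (SD, n = 4 each).

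The 2 called falls of largest TPM difference were low in leaves of day 6, with at most 11.7 TPM for Bo6g120910 and 4.90 TPM for Bo4g194460. Bo6g120910 had 1379, 2374, 3003 and 1656 TPM in starved libraries, against 6259, 3870.0, 4319.9 and 4608 TPM in control libraries. It fell to 2103 ± 732 TPM in starved roots, against 4764 ± 1042 TPM in control roots (SD, n = 4 each; limma, log2 fold change -1.22, SE 0.26, adjusted p = 0.002). In the 3 libraries with a positive length correlation alone it was -1.35 and not called (limma, adjusted p = 0.14). Bo4g194460 had 1750.0, 2044, 1473 and 2694 TPM in starved libraries, against 3819, 3928, 4044 and 3794 TPM in controls, which lay close together. Its log2 fold change was -1.0 (limma, SE 0.21, adjusted p = 0.00121). In those 3 libraries it was -0.52 and not called (limma, adjusted p = 0.67).

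The most abundant feature of these roots, Bo2g055670, had 7275, 9104, 9635 and 13887 TPM in starved libraries a to d, against 18819.7, 16904, 19305 and 15052 TPM in control libraries. All starved libraries lay below all controls, yet the log2 fold change of -0.85 was not called (limma, SE 0.32, adjusted p = 0.0789). With only the 8 libraries of day 6 it was called (limma, adjusted p = 0.0495), and likewise without starved library d (limma, log2 fold change -1.02, adjusted p = 0.0436) and with array weights (limma, adjusted p = 0.0093). Within the kinds of library it was -1.15 in the 5 and -0.20 in the 3, called in neither (limma, adjusted p = 0.0807 and 1). On days 1 and 3 Bo2g055670 was called lower, at -2.04 and -1.47 (limma, adjusted p = 0.000186 and 0.00448). No difference of its effect on day 6 from those of days 1 and 3 was detected (limma, adjusted p = 0.165 and 0.681). The second most abundant feature, Bo8g112960, had 4456, 5516, 3637 and 5599 TPM in starved roots, against 5186, 4702, 4883 and 5589 TPM in control roots. These groups overlapped, and no difference was detected (limma, log2 fold change -0.10, SE 0.17, adjusted p = 0.839).

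Some features were detected on day 6 in starved roots and in no control. Of the 27427, 6 were listed at 0 in all 4 controls and 0 in all 4 starved libraries. These 6 entered through their starved libraries alone, which fixed their direction, so their calls are no result. Bo9g043560 had 105, 62, 102 and 85 reads in starved libraries a to d, or 14.9 ± 3.16 TPM (SD, n = 4), and 0 reads in each control. A count of 0 allows up to 3 reads, and against 3 reads per control library it was at least 30-fold higher in starved roots. Bo5g006870 had 5.17, 3.96, 5.05 and 3.64 TPM in starved libraries and 0 reads in each control, and was at least 37.5-fold higher by the same measure. Both bounds cover counting error only, and reads without molecular identifiers are not independent molecules. In controls of earlier days Bo9g043560 reached 0.526 TPM and Bo5g006870 reached 0.0421 TPM, so neither was silent in every control library. With no limit on the level, 67 Bo features, these 6 included, were at 0 in all controls and above 0 in all starved libraries, and 47 the other way round.

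A larger share of rises than of falls lay below 1 TPM in leaves. Of the 2509 rises, 1160 (46.2%) stayed under 1 TPM in all 8 leaf libraries of day 6, and of the 1863 falls 524 (28.1%) did, against 18.1% of all 27427 features. Among the 100 root-abundant features described above, 15 were called higher and 26 lower, where 9.15% and 6.79% of all 27427 features were, with a median log2 fold change of -0.24 against 0.04 over all features. Of the 44 leaf-abundant features among the 27427, 3 were called higher and 2 lower, close to the shares of all features, with a median of -0.37. These shares are descriptions and were not tested.

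The 3 days of the time course show how far the day 6 state was reached earlier. On day 3, 762 of the 2509 rises were already called higher, and 595 (31.9%) of the 1863 falls were called lower. Of all 27427 features 7.78% were called on that day, 4.02% higher and 3.76% lower. On day 1, 696 (27.7%) of the rises were called higher and 540 (29.0%) of the falls lower, where 8.60% of all features were called, 4.18% higher and 4.43% lower. The libraries of the 3 days are separate. Of all root libraries, control a of day 1 and starved d of day 3 had the lowest array weights, 0.0817 and 0.167. Starved d of day 3 also had the fewest reads, 13819010. The median log2 fold change of the day 6 rises was 0.34 on day 1 and 0.39 on day 3, and that of the falls -0.31 and -0.37, while the medians of all features were 0.11 and -0.04. Called on neither earlier day were 1373 of the rises and 1035 of the falls, as were most of all 27427 features. A missing call is no proof of a missing effect. A called fall on day 1 was found for 38 (1.51%) of the rises, against 4.43% of all features. For 23 (1.23%) of the falls a called rise on day 1 was found, against 4.18% of all features. Both shares lie below those of all features.

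The effect of day 6 was also set against that of day 3 directly. The difference of the log2 fold changes was called for 520 features, or 1.90% of the 27427, with 379 (1.38%) more positive on day 6 and 141 (0.514%) more negative. Of the 379, 322 were rises on day 6, and over all 379 the effects had medians of 1.17 on day 6 and -0.19 on day 3, on the log2 scale. Of the 141, 115 were falls on day 6, with medians over the 141 of -0.99 on day 6 and 0.03 on day 3. Opposite calls on the 2 days were made for 23 of the 379 and 3 of the 141. The count was 329 without starved a of day 3 or without control a of day 6, 345 without control c of day 3, 1110 with the length correlation as a covariate and 2282 with array weights. Against day 1 the difference was called for 1156 features (4.21%), with 728 (2.65%) more positive on day 6 and 428 (1.56%) more negative. Among the 2509 rises of day 6, 206 had an effect more positive than on both earlier days. Among the 1863 falls 65 had one more negative than on both. The levels of day 6 enter both the calls of day 6 and these differences. The choice thus favours such overlaps, also those of the 322 rises with the 379 and of the 115 falls with the 141. These overlaps were not tested.

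**Figure D4:**
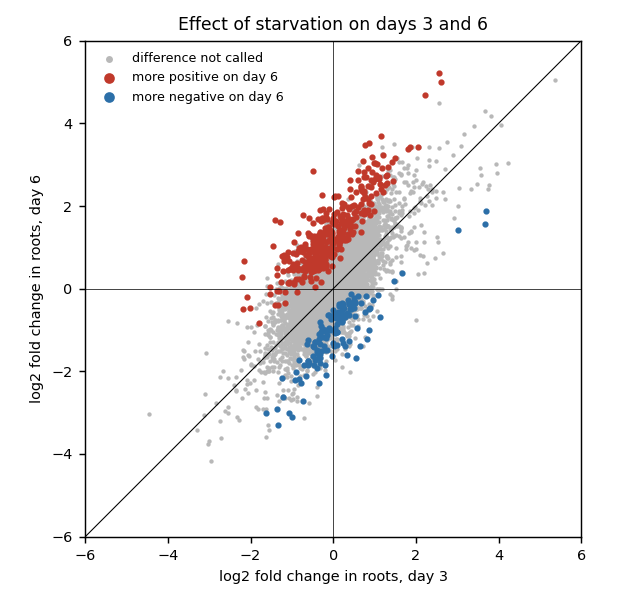
Log2 fold change of starved over control roots on day 6 against that on day 3 for the 27427 features, with the line of equal effects. The 379 features with a called, more positive effect on day 6 (red) lie above the line and the 141 with a more negative one (blue) below it.

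In starved roots Bo8g076240 was highest on day 6. It had 7.69 ± 3.06, 16.6 ± 3.97 and 98.2 ± 36.5 TPM in starved roots of days 1, 3 and 6, against 5.80 ± 2.66, 1.99 ± 0.606 and 1.51 ± 0.196 TPM in control roots (SD, n = 4 each). It was already called higher on day 3 (limma, log2 fold change 2.55, adjusted p = 5.84e-06). Its effect on day 6 exceeded that on day 3 by 2.66 (limma, SE 0.42, adjusted p = 0.00171). Bo1g021930 was already called higher on day 1 (limma, log2 fold change 3.07, adjusted p = 0.000242), at 45.8 ± 26.1 TPM in starved and 3.54 ± 1.74 TPM in control roots. Starved a of that day, at 6.85 TPM, lay close to the highest control, 5.63 TPM, and far below b, c and d (55.1 to 62.9 TPM). On day 3 Bo1g021930 stood at 189 ± 89.2 TPM in starved and 3.41 ± 1.21 TPM in control roots. No difference between its effects on days 6 and 3 was detected (limma, difference -0.31, SE 0.69, adjusted p = 0.903). For Bo9g005670 both levels moved apart, with starved levels of 8.43 ± 1.06, 5.27 ± 1.41 and 5.04 ± 1.81 TPM on days 1, 3 and 6, against control levels of 40.00 ± 8.99, 50.1 ± 21.5 and 105 ± 15.2 TPM. The effect was more negative on day 6 than on day 1 by -2.08 (limma, SE 0.36, adjusted p = 0.00132), alongside a higher control level.

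Controls changed over the days for other features too. Bo7g059810 had the most positive difference from day 3, 3.34 (limma, SE 0.62, adjusted p = 0.00544). On day 6 it had 56.5, 89.5, 58.3 and 38.5 TPM in starved roots, against 4.72, 7.60, 8.61 and 8.88 TPM in control roots. On days 1 and 3 the controls had stood at 41.2 ± 6.59 and 45.5 ± 26.8 TPM. Control b of day 3, at 7.49 TPM, was already within the range of the day 6 controls, and without it the difference was 4.04. As the other earlier controls stood higher, the starved level of day 6, 60.7 ± 21.2 TPM, overlapped the range of those earlier controls. In the 3 libraries with a positive length correlation the change of day 6 was 2.1 and not called (limma, adjusted p = 0.186). Bo8g004490 came second, with a difference of 3.07 (limma, SE 0.60, adjusted p = 0.00739), which spans opposite calls on days 3 and 6. Starved roots of day 3 had 1.99 to 11.5 TPM, against 9.23 to 41.9 TPM in control roots. Bo8g004490 was called lower on that day (limma, log2 fold change -1.41, adjusted p = 0.0416). It had 31, 6.67, 13.4 and 11.7 TPM in starved roots of day 6, against 2.87, 3.31, 4.76 and 3.67 TPM in control roots, and its controls had been at 13.7 ± 2.91 TPM on day 1 and 21.4 ± 14.5 TPM on day 3. Of the starved libraries of day 6, a, c and d lay within the range of the earlier controls, 9.23 to 41.9 TPM, and b below it. Its rise of day 6, 1.66 over all 8 libraries, was called in neither kind alone (limma, adjusted p = 0.0629 in the 5 and 0.449 in the 3).

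In the other direction Bo9g161750 differed from day 3 by -2.22 (limma, SE 0.38, adjusted p = 0.00281). It was already called lower on day 1 (limma, log2 fold change -1.1, adjusted p = 0.0103), at 0.411 ± 0.123 TPM in starved and 2.03 ± 0.354 TPM in control roots. No difference between its effects on days 6 and 1 was detected (limma, difference -0.58, SE 0.38, adjusted p = 0.572). It had 1.99, 2.22, 2.40 and 2.13 TPM in starved roots of day 6, against 10.02, 7.82, 8.55 and 10.6 TPM in control roots, and 5.67 ± 3.22 TPM in starved and 3.43 ± 1.52 TPM in control roots of day 3. In the 3 libraries its fall of day 6 was -1.69 and not called (limma, adjusted p = 0.0605). Bo1g065080 remained a rise on day 6 but a smaller one. It had 1.78, 3.77, 2.1 and 3.74 TPM in starved roots, against 0, 0.367, 0.218 and 0.545 TPM in control roots, after 12.6 ± 6.28 and 15.9 ± 4.99 TPM in starved roots of days 1 and 3. The difference from day 3 was -2.12 (limma, SE 0.36, adjusted p = 0.00271), and it was not called with a pseudocount of 0.1 (limma, adjusted p = 0.0914) or with voom (limma, adjusted p = 0.534).

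**Figure D5:**
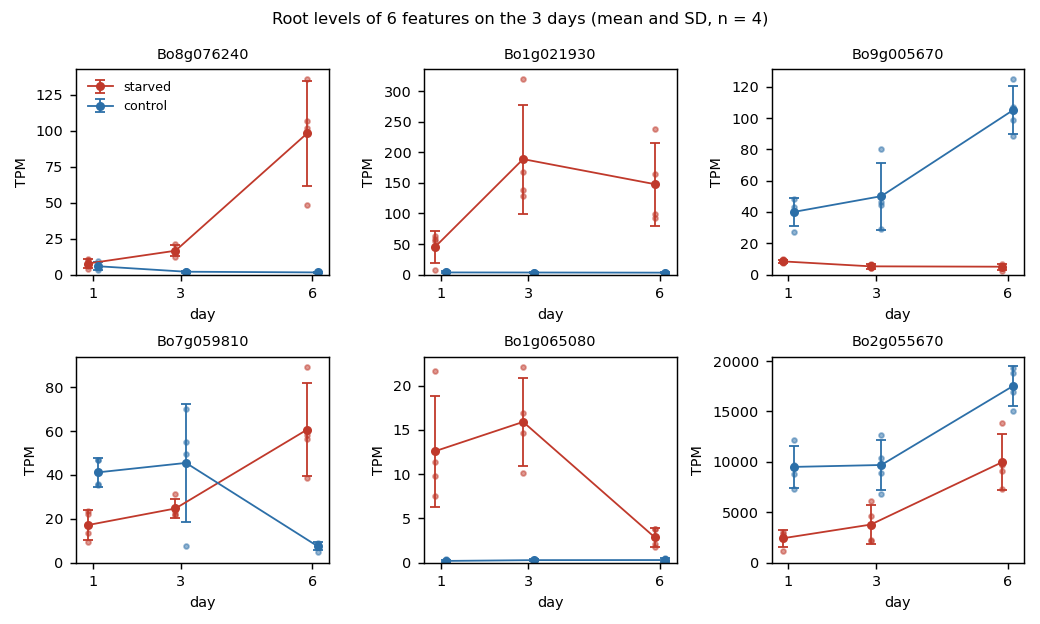
Root levels of 6 features on days 1, 3 and 6 in starved (red) and control (blue) plants, with the mean and SD of 4 libraries and each library as a small point, on axes in TPM that start at 0. Bo8g076240 separates on day 3 and more widely on day 6. The control of Bo9g005670 rises, as do both the starved and the control level of Bo2g055670. The control of Bo7g059810 is lower on day 6 than on days 1 and 3. The starved level of Bo1g065080 is lower on day 6 than before.

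This was examined for all calls with the 8 control libraries of days 1 and 3, whose levels do not enter the fold changes of day 6, though the fit shares their spread. For 901 (35.9%) of the 2509 rises all 4 starved libraries of day 6 lay above those 8 controls, against 4.28% of all 27427 features. For 426 (17.0%) all 4 controls of day 6 lay below the earlier controls, against 2.93% of all features, and 84 rises had both. Among the 1863 falls 685 (36.8%) had starved libraries all below the earlier controls, 283 (15.2%) had controls of day 6 all above them and 68 had both. The corresponding shares of all features were 3.73%, 1.98% and 0.248%. Since low controls and high starved levels both favour a call, part of these excesses follows from the choice of the calls.

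Measured against every control root library of the study, 872 (34.8%) of the rises had all 4 starved libraries of day 6 above all 12 controls, and 649 (34.8%) of the falls had them below, against 3.45% and 2.71% of all features. Beyond all 20 other root libraries, starved ones of days 1 and 3 included, lay the day 6 starved libraries of 174 rises (6.94%) and 160 falls (8.59%). Of all features 0.685% lay above and 0.685% below. Bo8g076240 was among those above, since its lowest starved value on day 6, 48.3 TPM, exceeded its highest on day 3, 21.6 TPM. The starved libraries and the controls of day 6 also made the calls. Part of the excess of these shares over those of all features therefore follows from that choice.

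The calls were also read along the ID numbers. Among 28294 pairs of tested features next to each other in ID order, both were called in 813, with 340 pairs both higher, 201 both lower and 272 split. Other IDs may lie between the features of a pair if they were not tested. Only calls among the 27427 features were counted, and tested features outside them were taken as not called. A feature that followed a rise was itself a rise in 13.9% of cases, against 8.12% after a feature that was none, and a feature that followed a fall was a fall in 11.1% of cases, against 6.05%. No test was made of these shares, and near-identical neighbours may share reads, which was not tested. By the digit that follows Bo in the ID, at least 8.02% of features were called higher and 6.09 to 7.65% lower.

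Runs of calls were short, with 68 of 3 features, 11 of 4 and 2 of 5. The first of the longest runs joined Bo6g116280, Bo6g116330, Bo6g116340, Bo6g116350 and Bo6g116360, all higher in starved roots. Bo6g116330 was the most abundant of them, with 78.6, 70.8, 66.1 and 125 TPM in starved libraries, against 31.4, 42.7, 25.2 and 32.7 TPM in control libraries. The groups did not overlap (limma, log2 fold change 1.32, SE 0.26, adjusted p = 0.000818), and the effect was larger than on day 3 by 1.57 (limma, SE 0.37, adjusted p = 0.0274). Bo6g116340 had 16.0 ± 1.73 TPM in starved and 8.70 ± 1.96 TPM in control roots, and Bo6g116350 had 1.92 ± 0.648 and 0.394 ± 0.289 TPM (SD, n = 4 each). The outer features were close to the threshold, with log2 fold changes of 0.50 for Bo6g116280 and 0.49 for Bo6g116360 (limma, adjusted p = 0.0467 and 0.0489). Each of these 2 lost its call on leaving out several single libraries, Bo6g116280 without starved a, b or d or control a, c or d and Bo6g116360 without any starved library or control a, c or d (limma, adjusted p = 0.0565 to 0.131). Without any 1 of those libraries the run of 5 is broken.

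Of 4 classes by coding length, the longest, from 1599 bases up, had the fewest calls, with 5.56% higher and 3.42% lower. The class from 630 to 1050 bases had the most, with 11.8% higher and 8.78% lower. In the 5 libraries with a negative length correlation the median log2 fold change was 0.04 in the shortest class and 0.24 in the longest, and in the other 3 it lay between -0.04 and 0. With each library's trend with coding length removed, 2708 features were called higher and 2844 lower, against 2509 and 1863 without that step. The excess of rises over falls was thus not seen there. That step also gives every library the same mean log2 level over the features tested, which by itself shifts all fold changes. It therefore cannot show what removing the length trend alone does to the split.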

How the data were processed

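Total RNA was purified with a plant kit, freed of DNA and read by DNBseq, per the labels' protocols. STAR 2.7.10a, cutadapt 4.1, FastQC 0.11.9 and DESeq2 were used, per the submitters' processing notes, which assign them no step. Genome build, annotation and read counter were not given in the sources used here. As deposited by the authors, the table holds TPM for 60586 features in 48 libraries.

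Whole reads and coding lengths were recovered from the TPM values as the smallest whole solution per feature, found for 44911 of 44911 features above 0 in at least 2 libraries (deviation of at most 0.001 reads). The lengths were multiples of 3 for 97.4% of Bo features.

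The test was limma 3.58.1 in R 4.3.3 (lmFit, eBayes with trend) on log2(TPM + 1) of the 24 root libraries, with a term per day and treatment. It covered the 29422 features that reached 1 TPM in 4 or more of them, and p-values were adjusted over all of these. The read recovery and the limma test were each tested on simulated data. Sums over libraries were compared with exact permutation tests. Tables were handled in Python 3.11.15 with pandas 2.3.3.

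Features were named by rule: the 2 rises and 2 falls of largest fold change without overlap, the 2 and 2 of largest TPM difference, the 2 and 2 of most extreme difference from day 3 without overlap, up to 2 at 0 in all libraries of 1 group with the highest mean in the other, the 2 most abundant, and the longest run of calls in the ID order of tested features. The features, rules and tests were chosen with earlier results of these data known. The alternatives were another pseudocount, no filter, the 8 libraries alone, rescaling, a replicate block, array weights, voom, removal of length trends, a minimum fold change and leaving out libraries. The length covariate and the fits within each kind of library were added after seeing the data.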

Additional observations from a re-analysis of the deposited data

Results flagged for a closer look

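In 3 of 52 groups of 4 root values examined, all of day 6, 1 library lay far from the other 3, where chance gives about 1 in 20. Bo6g116350 stood at 2.89 TPM in starved b, against 1.51 to 1.66 TPM in the other starved libraries. The summed level of the 100 leaf-abundant features was 89.7 TPM in starved c, against 252 to 275 TPM in the other starved libraries, and 414 TPM in control d, against 134 to 173 TPM in the other controls. The part of these sums in the results was not tested.

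For several named features the effect on day 6 differed from an earlier day by a test of the difference (limma, adjusted p under 0.05). Bo7g059810, Bo8g004490, Bo9g161750 and Bo1g065080 were named for a called difference from day 3, so their calls against day 3 are no result. Bo9g043560 entered through its starved libraries of day 6 alone, and others were named for a large change on day 6, which favours such differences. Against day 3 the differences were 2.66 for Bo8g076240, 3.34 for Bo7g059810, 3.07 for Bo8g004490, -2.22 for Bo9g161750, -2.12 for Bo1g065080 and 1.57 for Bo6g116330. Against day 1 they were 4.86 for Bo8g076240, 4.13 for Bo7g059810, 2.81 for Bo9g043560, 1.72 for Bo6g116330, 1.30 for Bo6g116350, 1.18 for Bo7g077600 and 1.18 for Bo8g112960, and in the negative direction -2.26 for Bo6g120910, -2.08 for Bo9g005670 and -1.86 for Bo1g065080. Bo6g120910 changed sides, with 6575 ± 3047 TPM in starved and 3059 ± 820.2 TPM in control roots on day 1 (SD, n = 4 each; limma, log2 fold change 1.04, adjusted p = 0.0145). Bo8g112960, which did not differ on day 6, was lower on day 1, at 2104 ± 163 TPM in starved and 5152 ± 810.1 TPM in control roots (SD, n = 4 each; limma, log2 fold change -1.28, adjusted p = 4.03e-05).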

How the results depend on the processing

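The 4372 calls of day 6 stayed within 1.5 times that count under the other settings except for those given here. They numbered 1679 at a log2 fold change of at least 1, 7656 with array weights, 7207 with the length correlation as a covariate and 959 in the 3 libraries with a positive length correlation. The split of rises and falls was 2532 and 2281 after rescaling by medians of ratios, which moved the median fold change by -0.03, and 5058 and 2598 with array weights. The 520 differences from day 3 numbered 2282 with array weights, 1110 with the covariate and 329 to 631 without 1 library. The 1156 differences from day 1 numbered 4061 with array weights and 2484 with the covariate. Without control a of day 1 and starved d of day 3, which had the lowest array weights, 5926 features were called on day 6. The differences then numbered 672 from day 3 and 1593 from day 1. Of 541 values of named features under another setting 499 kept direction and call, 37 lost the call, 3 gained it and 2 reversed, the last both for Bo8g112960, at 0.02 without starved c (range -0.18 to 0.02 without 1 library) and 0.13 in the 3 libraries with a positive length correlation. The cause was not tested, apart from the fewer libraries in the last. Deviations from the group means were correlated between treatments for letters a, c and d (0.226, 0.473 and 0.595) but not for b (-0.186), so letters were not taken as pairs, and starved a and b did not correlate best with the control of their own letter. With the replicate block 4305 features were called on day 6, 606 in the difference from day 3 and 1136 in that from day 1. Leaving out 1 library of day 6 at a time gave 3447 to 4239 calls on that day, and 1 library of days 1 or 6 gave 835 to 1320 differences from day 1. Depth limits what a level of 0 shows, since 3 reads per control library amount to 0.494 TPM for Bo9g043560 and 0.119 TPM for Bo5g006870.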
